A study of Mus musculus with 4 samples.

Results

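The heat shock response and the unfolded protein response are described here by 40 listed genes, of which 38 were named on the arrays and measured in endometriotic lesions of mice. Members were the listed symbols carried by probe sets annotated to exactly 1 gene, out of 18193 genes named that way, and each was read from its brightest probe set. All 38 passed the filter on low values, a geometric mean intensity of at least 33.9, so none was lost to it. Hsf1, the master transcription factor of the heat shock response, and Hsp90ab1, the constitutive cytosolic HSP90, were not analysed here. The list symbol Ero1lb is carried by the annotation as Ero1b.

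The lesions, deposits of endometrium-like tissue found outside the womb, came from mice given a casein diet, labelled as the control, or a high-fat diet. Each diet had 2 arrays, called casein arrays 1 and 2 and high-fat arrays 1 and 2 after their replicate numbers. The series title describes the mice as immunocompetent; the sources used here do not give strain, age, diet duration or how many animals or lesions stand behind an array. P-values therefore measure only the spread between these arrays, which may be technical. An exact permutation test of 2 arrays per diet cannot give a two-sided p under 0.333, and genes were therefore tested only by limma across all 12797 tested genes.

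Cells answer misfolded protein differently in each compartment. In the cytosol and nucleus HSF1 binds heat shock elements and switches on HSP70, HSP110, HSP40 and HSP90 chaperones. In the endoplasmic reticulum (ER) the sensors PERK, IRE1 and ATF6 drive ER chaperones, protein disulfide isomerases and the machinery that sends misfolded proteins to the proteasome, and PERK acts through ATF4 and CHOP on genes of amino acid supply and cell death. Secretory epithelium and plasma cells are known for high basal expression of the ER chaperones.

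Promoters are shown first for the HSP70-machine genes that had an unadjusted limma p under 0.05 and a GAANNTTC heat shock element in the window, which leaves out Dnajb1, with Hspa5, the ER HSP70, beside them for contrast. RefSeq promoters (GRCm38.p6, 250 bases before to 50 after each start) were matched by symbol for 32 of the 38 members, 37 promoters in all. Dnaja1 is shown at the annotated start with a match, and the windows of its other annotated starts held none. The bases before the start are printed, 150 of them, with capitals marking a heat shock element (GAANNTTC) or, in Hspa5, an ER stress element (CCAAT and CCACG with 9 bases between them). For Hsph1 the element lies after the annotated start, so only 30 bases around it are printed and capitals mark its 3-unit form (GAA and TTC units in alternation, each 2 bases from the next). They read 5′ to 3′ on the strand of the gene.
Hspa1a, chr17:34972157-34972306, minus strand: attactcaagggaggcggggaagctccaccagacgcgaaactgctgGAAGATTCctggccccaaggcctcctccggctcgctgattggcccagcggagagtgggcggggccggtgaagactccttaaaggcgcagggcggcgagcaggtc
Hspa1b, chr17:34959239-34959388, minus strand: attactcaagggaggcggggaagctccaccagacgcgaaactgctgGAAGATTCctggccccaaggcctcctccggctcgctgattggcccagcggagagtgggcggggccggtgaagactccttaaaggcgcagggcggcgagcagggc
Dnaja1, chr4:40722318-40722467, plus strand: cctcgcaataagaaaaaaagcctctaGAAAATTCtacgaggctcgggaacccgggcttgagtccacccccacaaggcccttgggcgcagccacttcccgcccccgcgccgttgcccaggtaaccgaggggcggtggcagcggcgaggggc
Hsph1, chr5:149636280-149636309, minus strand: tgctgcagaTTCTGGAAAGTTCtcctcagt
Hspa5, chr2:34771940-34772089, plus strand: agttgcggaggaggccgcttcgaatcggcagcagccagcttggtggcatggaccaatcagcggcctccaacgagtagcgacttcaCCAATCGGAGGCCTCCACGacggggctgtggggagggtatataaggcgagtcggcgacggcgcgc

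The printed stretches of Hspa1a and Hspa1b differed at 1 of 150 bases. These neighbouring genes encode nearly the same inducible HSP70, so their probe sets may share transcripts and their values are not independent. On either strand, GAANNTTC lay in 9 of 15 promoters of heat shock members (8 of 10 genes, all but Dnajb1 and Hspa4) and 1 of 22 promoters of unfolded protein response members (Asns), against 7.86% of all 32851 promoters. The 3-unit form, which contains the shorter one, lay in 4 of 15 and 0 of 22 promoters, against 0.603%. Promoters of Hspd1 and Hspe1, which face opposite ways, overlap by 285 bases and so share their elements. Hsph1 likewise has 2 overlapping promoters with the same element, so these promoter counts include shared elements more than once. A gene was counted if any of its windows had a match, although Dnaja1 and Hspd1 also have windows without one. The ER stress element lay in 8 of 22 promoters of unfolded protein response members (Calr, Canx, Creld2, Dnajc3, Ero1b, Hsp90b1, Hspa5 and Pdia6) and in 0 of 15 of heat shock members, against 0.119% of all promoters. An ATF4 response element (TGATGNAAT) and a UPR element (TGACGTGG) were in no member promoter window, against 0.965% and 0.676% of all. A match is a description of these letters in this window. Only these exact letters were searched for the ATF4, UPR and ER stress elements. Genes without a match, Asns and other ATF4 targets among them, are therefore not shown to lack such an element. With such low shares over all promoters, finding none in so few windows says little about the members. The order TTCNNGAA was not searched as a pair, so genes without a GAANNTTC match are not shown to lack a heat shock element. The median diet difference was -0.12 for the 8 unfolded protein response genes with an ER stress element and -0.11 for the 14 without one in this window. It was -0.32 for the 8 heat shock genes with a GAANNTTC match and -0.38 for the 2 without.

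Arrays had been brought to a common level before deposit, with median intensities between 55.1 and 56.5. Casein array 1 held a strong signal of gastric mucosa (12 of 13 markers on the array, summed intensity 66883 against 10051 in casein array 2 and 440 and 451 in the high-fat arrays). High-fat array 1 held one of skeletal muscle (12 of 12 markers highest there, summed intensity 29106 against 849 to 1077 elsewhere). Endometrial stroma markers, of the labelled tissue, had summed intensities of 15345 and 18593 in the casein arrays and 18900 and 18330.0 in the high-fat arrays. The uterine patterning genes Hoxa10 and Hoxa11 were lowest in casein array 1, at 647 and 166, against 1521 to 1886 and 363 to 427 in the other arrays, and the mean deviation of the stroma list there was -0.40. No detection calls were used here, so no gene can be called absent. In such bulk samples fewer cells of a type and less RNA per cell cannot be told apart.

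Across the 38 members, values were lower in the high-fat arrays for 30 (51.4% of all tested genes were lower), and the members farthest down were chaperones of the cytosolic HSP70 machine. After Benjamini-Hochberg adjustment 0 members passed limma's threshold of 0.05, beside 0.0% of all genes (smallest adjusted p among members 0.863). At an unadjusted limma p under 0.05 there were 6 members, all lower in the high-fat arrays: Hspa1a, Hspa1b, Hsph1, Dnajb1, Dnaja1 and Herpud1. They make up 15.8% of the members, against 4.97% of all genes in either direction and 2.73% in that direction, and 0 members were past it in the other direction, against 2.24%. Both high-fat arrays lay below both casein arrays for 18 members, or 47.4%, against 19.3% of all genes, and above both for 0 members, against 16.6%. The median difference, always high-fat diet minus casein diet on the log2 scale, was -0.25 for the 13 heat shock members and -0.12 for the 25 unfolded protein response members, beside -0.01 for all tested genes.

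Inducible HSP70 had the largest differences. Hspa1b, which encodes the stress-inducible HSP70, had intensities of 2684 and 1952 in the casein arrays and 973 and 1230.0 in the high-fat arrays. The diets did not overlap, and the values were 2.09-fold higher in the casein arrays (log2 difference -1.07, SE 0.22, 95% interval -1.70 to -0.43). The gap between diets exceeded the gaps within them, which were 0.46 for the casein arrays and -0.34 for the high-fat arrays (array 1 minus array 2). Its other probe sets differed by -1.14 and -1.24. Hspa1a, its near-identical neighbour, had intensities of 409 and 259 in the casein arrays and 167 and 165 in the high-fat arrays. Casein array 1 stood highest and the high-fat arrays were nearly equal, for a difference of -0.97 (SE 0.25).

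The partners of HSP70 followed the same order of diets. Hsph1, an HSP110 nucleotide exchange factor that recharges HSP70, had intensities of 1651 and 1212 in the casein arrays and 923 and 787 in the high-fat arrays. Its difference was -0.73 (SE 0.20), and its other probe set gave -0.78. Dnajb1, the HSP40 that delivers clients to inducible HSP70, had 843 and 668 in the casein arrays and 478 and 536 in the high-fat arrays, a difference of -0.57 (SE 0.16) with -0.63 from its other probe set. Among the runs that kept all 4 arrays, its unadjusted limma p was not under 0.05 with the replicate block or the second brightest probe set. With 1 array left out its difference ran from -0.74 to -0.40. Dnaja1, another HSP40 of the cytosol, was the member of this group for which casein array 1 was not the highest array. Its intensities were 2991 and 3213 in the casein arrays and 2261 and 2469.9 in the high-fat arrays, a difference of -0.39 (SE 0.11) with -0.37 and -0.28 from its other probe sets. For these genes the diets did not overlap on any probe set plotted.

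**Figure D1:**
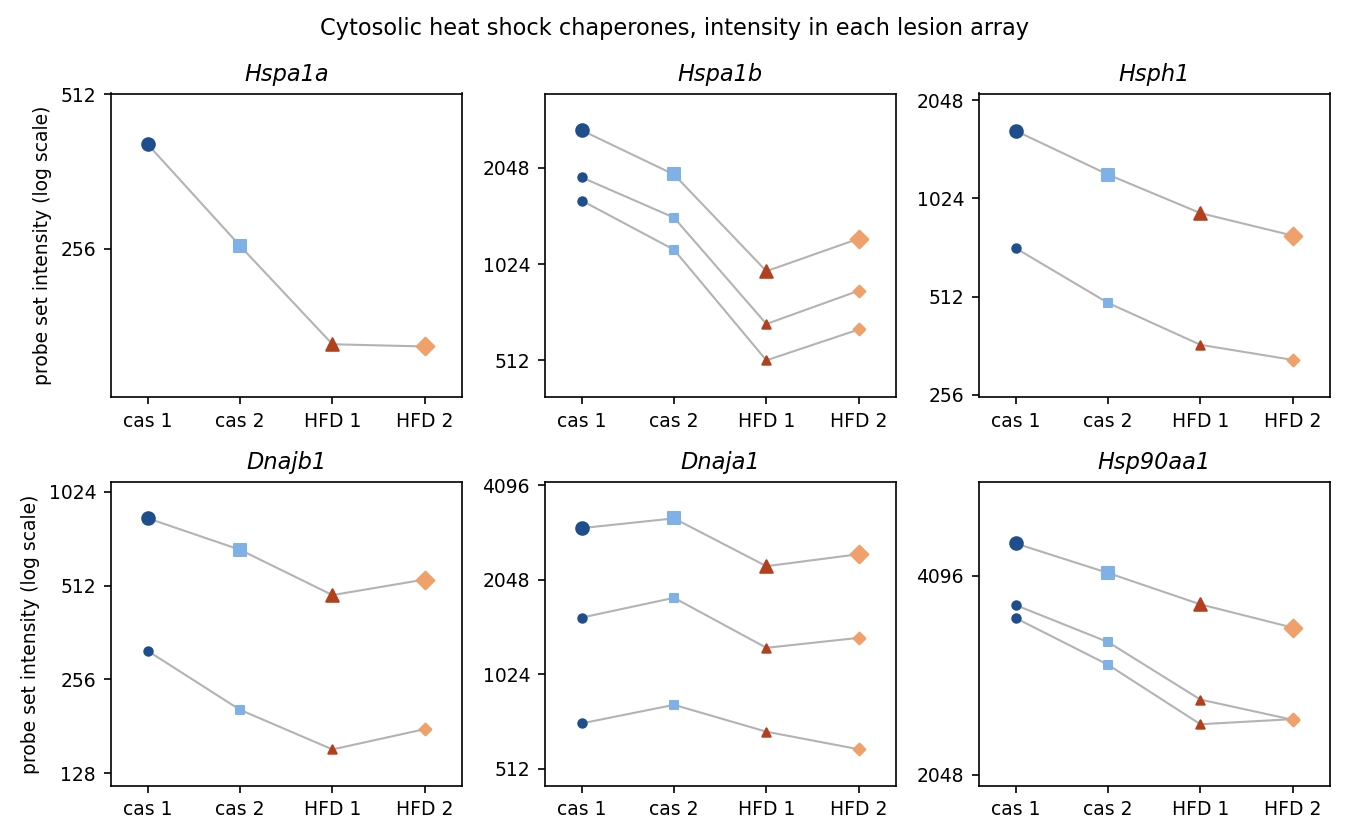
Intensity (log scale) of each probe set at or above the filter for 6 cytosolic chaperone genes in the 2 casein diet (cas) and 2 high-fat diet (HFD) arrays; large points are the brightest probe set, and grey lines join the values of 1 probe set, with no order implied among arrays. For Hspa1b the brightest probe set reads 2684 and 1952 in the casein arrays and 973 and 1230.0 in the high-fat arrays.

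The other HSP70-machine and HSP90 members differed less on their brightest probe sets. Hspa8, the housekeeping HSC70, had intensities of 10244 and 9241 in the casein arrays and 8926 and 8032 in the high-fat arrays (-0.20, SE 0.12). Its other probe sets gave -0.34, -0.19 and -0.57. Hspa4, an HSP110 relative, had 1339.7 and 1097 against 1034 and 1097, with casein array 2 and high-fat array 2 practically level (-0.19, SE 0.14). Its other probe sets gave -0.28, -0.31 and, for the dimmest, 0.16. Hsp90aa1, the inducible cytosolic HSP90, had 4586 and 4138 in the casein arrays and 3709 and 3421 in the high-fat arrays (-0.29, SE 0.11), without overlap; its next probe sets gave -0.43 and -0.40. On their brightest probe sets all 7 members of the HSP70 machine were lower, against 51.4% of all genes, with a median of -0.57. The diets did not overlap for these 7, against 19.3% of all genes in that direction, but Hspa4 separated only by 1097.2 against 1096.6. The dimmer probe sets of Hspa8 that gave -0.19 and -0.57 did overlap. They had 2128 and 264 in casein array 2 against 2210 and 272 in high-fat array 1.

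The small heat shock proteins, which hold unfolded clients without ATP, did not separate by diet. Hspb1 had 2226 and 2873 in the casein arrays and 2302 and 2296 in the high-fat arrays (-0.14, SE 0.16), so only casein array 2 stood apart. Hspb8, a partner of Bag3 in autophagy that is abundant in muscle, had 492 and 567 in the casein arrays and 738 and 385 in the high-fat arrays (0.01, SE 0.36). Its highest value was in the array with high skeletal muscle markers, whose part in it was not tested. The mitochondrial chaperones had small differences, all with intervals that include 0: -0.25 (SE 0.14) for Hspd1 (HSP60), -0.19 (SE 0.16) for its cofactor Hspe1 (HSP10) and -0.05 (SE 0.13) for Hspa9 (mortalin). Casein array 1 was the highest array for all 3, and only Hspd1 had diets that did not overlap, at 2633 and 2177 against 1934 and 2095.

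**Figure D2:**
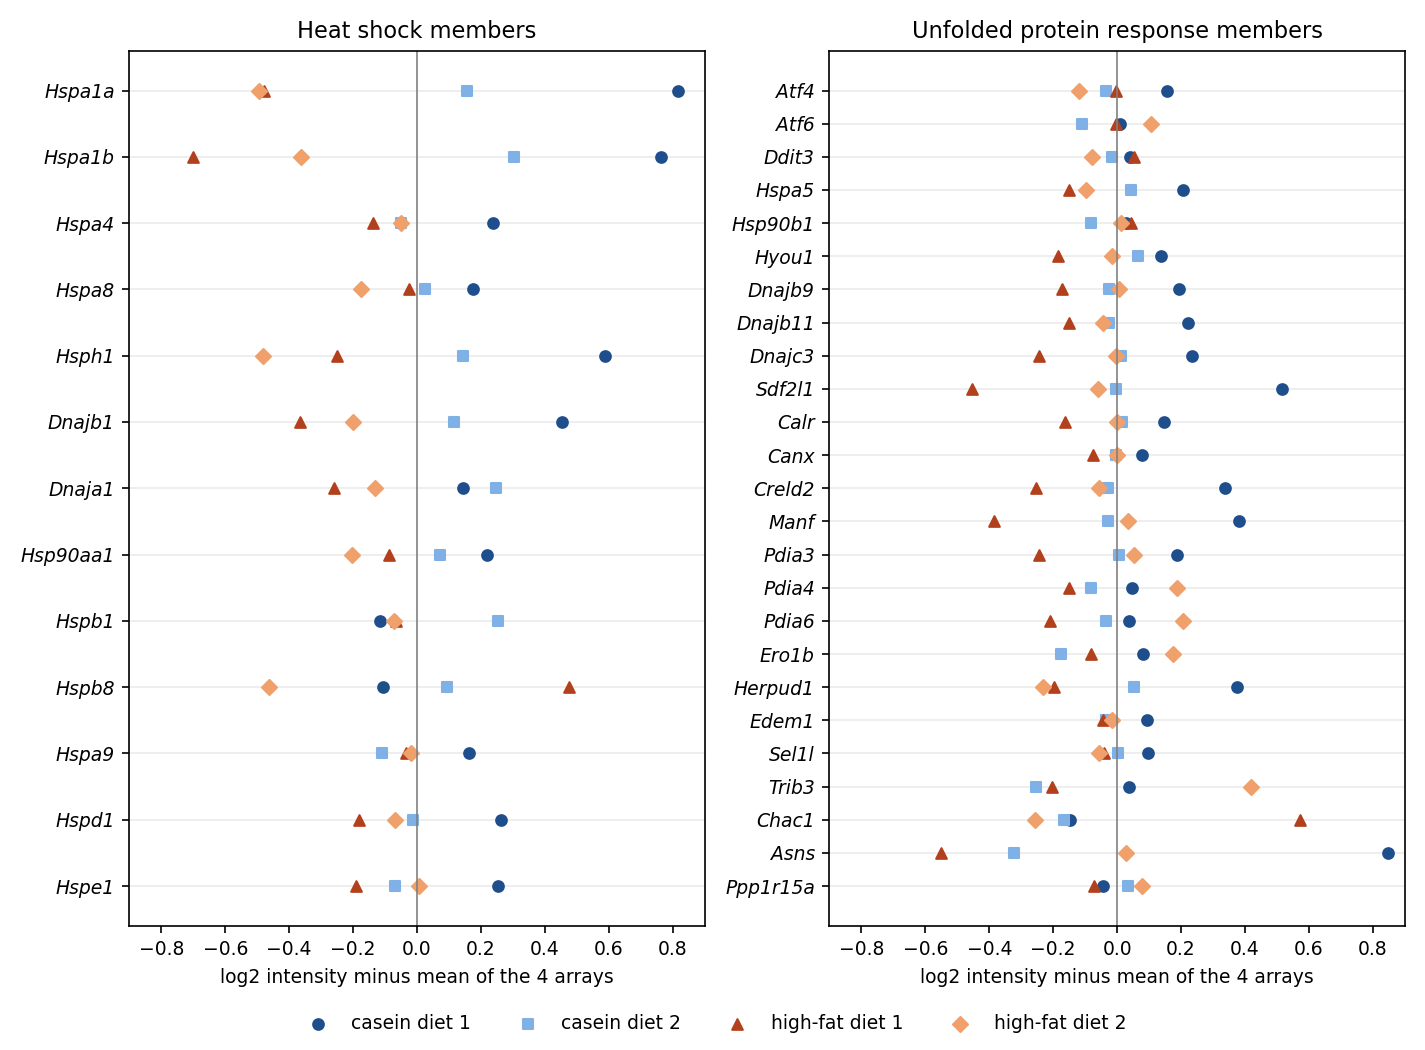
Each member's log2 intensity minus its mean over the 4 arrays, with circles and squares for casein arrays 1 and 2 and triangles and diamonds for high-fat arrays 1 and 2. Hspa1a, Hspa1b, Hsph1 and Dnajb1 show the widest gap between diets, whereas most ER members have casein array 1 on the right, high-fat array 1 on the left and the other arrays close together.

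Among the transcription factors of the unfolded protein response, levels were nearly even over the arrays. Atf4, the effector of the integrated stress response, had 1591 and 1396 in the casein arrays and 1425 and 1317 in the high-fat arrays (-0.12, SE 0.12). Atf6, the ER-anchored sensor cleaved in the Golgi, differed by 0.10 (SE 0.11). Ddit3, which encodes the pro-apoptotic factor CHOP, lay between 250.2 and 274 on all arrays (-0.03, SE 0.10, 95% interval -0.31 to 0.26). ATF4 is controlled largely at translation and ATF6 by cleavage, which an RNA array does not measure, whereas CHOP is induced mainly at transcription.

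ER chaperones had small differences, lower in the high-fat arrays for 10 of 11, against 51.4% of all genes, with a median of -0.20. Casein array 1 was the highest array for 10 of the 11, against 33.3% of all genes. High-fat array 1 was the lowest for 10, against 29.4%. Hspa5, the ER HSP70 known as BiP that restrains the sensors, had 6375 and 5696 in the casein arrays and 4985 and 5169 in the high-fat arrays. The diets did not overlap, but the difference was small (-0.25, SE 0.11, 95% interval -0.55 to 0.06). Hsp90b1, the ER HSP90 known as GRP94, went the other way by 0.05 (SE 0.10), with 5104 and 4730.2 in the casein arrays and 5157 and 5047 in the high-fat arrays; its second probe set gave -0.05. The other differences were -0.20 for the HSP110-like Hyou1, -0.25 for Dnajc3 (the PERK inhibitor p58IPK), -0.20 for Dnajb11 and -0.17 for Dnajb9, which are BiP cochaperones, and -0.16 and -0.07 for the lectin chaperones Calr and Canx, with SE between 0.10 and 0.15.

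Larger but more scattered were small ER stress proteins. Sdf2l1, a component of a BiP cochaperone complex, had 582 and 406 in the casein arrays and 297 and 390.3 in the high-fat arrays (-0.51, SE 0.25). Manf, a secreted ER protein, had 2156 and 1624 against 1266 and 1693 (-0.35, SE 0.23), and Creld2 had 888 and 689 against 589 and 676 (-0.31, SE 0.17). In all 3 the extremes were casein array 1 and high-fat array 1, and the other arrays were close. Without casein array 1 these differences were -0.25, -0.15 and -0.13, and without high-fat array 1 they came to -0.32, -0.14 and -0.21. Leaving out casein array 2 gave -0.77, -0.56 and -0.49.

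Oxidative folding enzymes, which make disulfide bonds, were divided, 2 lower and 2 higher. Pdia3, the isomerase that works with the lectin chaperones, differed by -0.19 (SE 0.15) and Pdia4 by 0.04 (SE 0.16). Pdia6 had 2146 and 2044 in the casein arrays and 1810.0 and 2412 in the high-fat arrays, so its lowest and highest values were both in the high-fat arrays. Ero1b, an oxidase that recharges the isomerases, differed by 0.09 (SE 0.16).

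In ER-associated degradation, Herpud1, a scaffold of the retrotranslocation complex, was the unfolded protein response member with the smallest p. It had 1059 and 849 in the casein arrays and 714 and 696 in the high-fat arrays (-0.43, SE 0.15, limma unadjusted p = 0.0457, adjusted p = 0.863), without overlap, and its other probe set gave -0.30. The difference was -0.27 without casein array 1, and its unadjusted p was no longer under 0.05 there, without either high-fat array, with the replicate block, after median centring or with the other choices of probe set. Sel1l, the adaptor of the HRD1 ubiquitin ligase, differed by -0.10 (SE 0.09). Edem1, a mannosidase-like protein that hands glycoproteins to degradation, differed by -0.06 (SE 0.10) on its brightest probe set and by 0.50 on the second, so its direction depends on the probe set.

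Targets of ATF4 and CHOP were divided, 1 lower and 3 higher. Asns, asparagine synthetase, had 370.4 and 164 in the casein arrays and 140.2 and 209.6 in the high-fat arrays (-0.53, SE 0.48). Its difference rested on casein array 1 and was 0.06 without that array. Trib3, a pseudokinase that restrains this pathway, was dim at 50.7 and 41.4 against 42.9 and 66.1 (0.22, SE 0.27). Chac1, a glutathione-degrading enzyme, was also dim, at 37.1 and 36.7 in the casein arrays and 61.3 and 34.5 in the high-fat arrays (0.32, SE 0.31), and the difference was -0.10 without high-fat array 1. Ppp1r15a, the GADD34 subunit that ends eIF2α phosphorylation, lay between 205 and 227 on all arrays (0.01, SE 0.11).

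**Figure D3:**
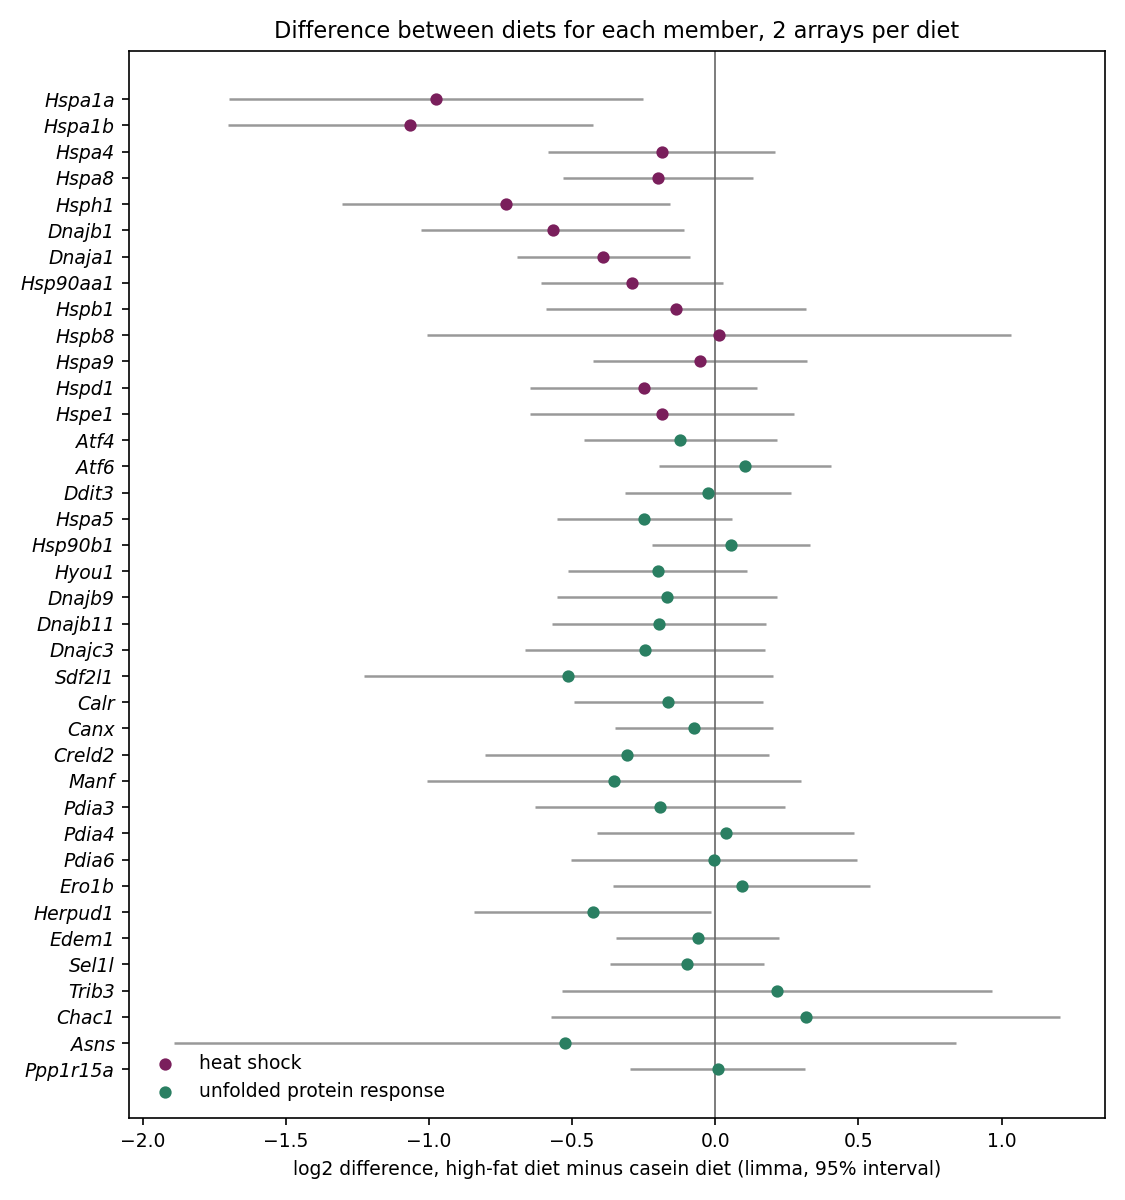
Log2 difference, high-fat diet minus casein diet, for each of the 38 members in order of role, with limma's 95% interval, from 2 arrays per diet. The interval lies below 0 for Hspa1a, Hspa1b, Hsph1, Dnajb1, Dnaja1 and Herpud1 and includes 0 for the other 32 members; these intervals are not adjusted for the number of genes.

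Other genes of these pathways were read from lists separate from the members, and none passed after adjustment. Among other heat shock factors and cochaperones 22 of 32 tested genes were lower, or 68.8% against 51.4% of all genes. An unadjusted limma p under 0.05 was reached by 4, all lower, or 12.5% against 2.73% of all genes. These were Bag2, a cofactor that inhibits the HSP70-linked ligase CHIP (-0.56, SE 0.10), Stip1, the HOP protein that joins HSP70 to HSP90 (-0.50, SE 0.14), the HSP40 gene Dnajb5 (-0.30, SE 0.10) and the HSP110 relative Hspa4l (-0.71, SE 0.23). Bag2 had 199 and 215 in the casein arrays and 143 and 137 in the high-fat arrays, and Stip1 had 339 and 275 against 222 and 209. All 8 subunits of TRiC, the cytosolic chaperonin for actin and tubulin, were lower, the farthest being Cct7 at -0.17 (SE 0.13), against the same 51.4% of all genes, and 0 had a p under 0.05. Casein array 1 was the highest array for 7 of these 8, against 33.3% of all genes.

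On the ER side the lists went both ways. Of 16 tested sensors and regulators 10 were lower, or 62.5% against 51.4% of all genes. The 1 with an unadjusted limma p under 0.05 was lower, or 6.25% against 2.73% of all genes in that direction and 4.97% in either. This was Wfs1, the wolframin of the ER membrane, with 304 and 349 in the casein arrays and 169 and 209.9 in the high-fat arrays (-0.79, SE 0.16). Atf3, a stress-induced factor, differed by -0.38 (SE 0.19), Atf5 by -0.25 (SE 0.13) and Ern1, the IRE1 sensor gene, by 0.26 (SE 0.14). Of 30 other ER folding and degradation genes 16 were higher and 14 lower, with a median of 0.04. Only 1 of the 30 had an unadjusted limma p under 0.05, against 4.97% of all genes. Derl3, a Derlin of ER-associated degradation, had the smallest p, with 112 and 102 in the casein arrays and 141 and 174 in the high-fat arrays (0.55, SE 0.15). Plasma cell markers, a cell type known for Derl3, were higher in the high-fat arrays for 7 of 7 genes, with summed intensities of 10773 and 12694 against 13094 and 14501, and their part in it was not tested. Of 27 other integrated stress response targets 17 were lower, or 63.0% against the same 51.4%. An unadjusted limma p under 0.05 was reached by 3 of the 27, 2 lower (7.41% against 2.73% of all genes) and 1 higher. The serine synthesis genes Psat1 and Phgdh went opposite ways, by -0.44 (SE 0.10) and 0.35 (SE 0.09), and the tryptophanyl-tRNA synthetase gene Wars by -0.56 (SE 0.17).

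The arrays did not fall into diets alike for every group of members. Casein array 1 was the highest of the 4 arrays for 26 of 38 members, or 68.4%, against 33.3% of all tested genes. High-fat array 1 was the lowest for 22, against 29.4% of all genes. The mean deviation of the cytosolic HSP70 machine from the 4-array mean was 0.45 and 0.13 in the casein arrays and -0.32 and -0.27 in the high-fat arrays, so both arrays of each diet lay on the same side. For the ER chaperones it was 0.23 and -0.01 in the casein arrays and -0.20 and -0.02 in the high-fat arrays, so casein array 2 and high-fat array 2 did not separate. Without casein array 1 the median of the unfolded protein response members was -0.03 and that of the heat shock members -0.22.

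Several marker lists moved with these arrays. Immediate early genes, transcription factors and regulators induced within minutes of a stimulus, were lower in the high-fat arrays for 9 of 9, with summed intensities of 5920.1 and 4330.4 in the casein arrays and 4292 and 3645 in the high-fat arrays, and 8 of 9 were highest in casein array 1. Endometrial epithelium markers were lower for 8 of 8, at 28172 and 18374 against 8054 and 12092. Of these 8, 7 were highest in casein array 1, which also held most of the gastric signal. Which epithelium they came from was not tested. Smooth muscle markers were lower for 7 of 7, at 21317 and 25285 against 15656 and 13049. These sums did not overlap between diets, and overlap was not counted for each marker. Intestinal markers had a summed intensity of 3774 in casein array 1 and at most 527 in the others. Of 11 exocrine pancreas markers 7 were highest in that array, but only Cela1 (1443 against 160 to 215) and Clps (175 against 29.4 to 38.6) stood well apart, and Ctrl (65.5 against 43.0 to 51.1) did not. Gastric markers were lower in the high-fat arrays for 12 of 12. Casein array 2 still held a summed intensity of 10051 against 440 and 451, so leaving out casein array 1 does not remove that gap. The part of any of these tissues in the member differences was not tested. Without casein array 1, the array with most of the gastric and intestinal signal, Hspa1b differed by -0.84, Hspa1a by -0.65, Hsph1 by -0.51, Dnajb1 by -0.40 and Dnaja1 by -0.44. Without high-fat array 1, the array with skeletal muscle, they differed by -0.90, -0.98, -0.85, -0.49 and -0.33.

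**Figure D4:**
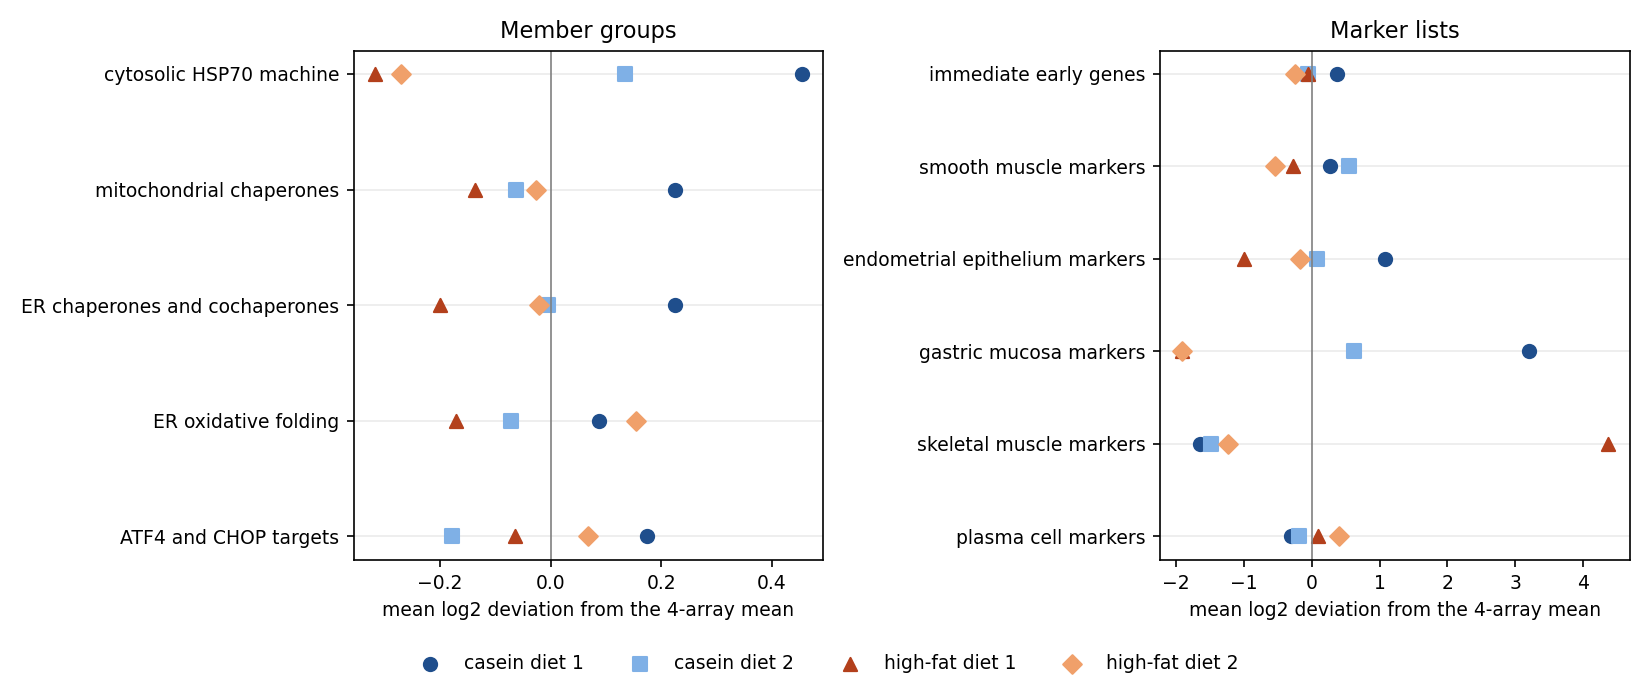
Mean log2 deviation from the 4-array mean in each array, for 5 groups of members (left) and 6 marker lists (right, wider axis), with symbols for the casein and high-fat diet arrays. The cytosolic HSP70 machine reads 0.45 and 0.13 in the casein arrays and -0.32 and -0.27 in the high-fat arrays, whereas ER chaperones read 0.23 in casein array 1, -0.20 in high-fat array 1 and -0.01 and -0.02 in the others.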

How the data were processed

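Total RNA of the lesions (0.1 µg input, 4 arrays) was labelled with biotin, per the labels' protocols. The authors deposited a linear intensity for each probe set, already normalised between arrays; GCOS and RMA are named in the submitters' processing notes, with versions, roles and order not given in the sources used here. Log2 was taken with no pseudocount. Of 45101 probe sets, 64 were controls, and 34945 of the rest had 1 gene symbol, 932 several and 9160 none. The brightest probe set per gene was kept and 12797 genes at or above the 40th percentile of mean log2 intensity were tested. Limma 3.58.1 (R 4.3.3; lmFit, eBayes, two-sided, Benjamini-Hochberg over all tested genes) compared the diets on 1.80 prior and 3.80 total degrees of freedom, and was tested on simulated data. Members, gene lists and tests were chosen with earlier results of these data known. All members are named; of each other pathway list, up to 4 tested genes with the smallest p are named; of marker lists, summed intensities are given. Alternatives were a replicate block, other normalisations, filters, probe set choices, a pseudocount of 16, an intensity trend and leaving out each array. The files name no genome build, so coordinates are given only for the RefSeq promoters.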

Additional observations from a re-analysis of the deposited data

How the results depend on the processing

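No gene passed limma's adjusted test in any alternative except without casein array 2, where 17 did, none of them a member (smallest adjusted p among members 0.133); over the arrays left out that count ran from 0 to 17, and at an unadjusted p under 0.05 the main count of all genes was 636. The count of members at an unadjusted p under 0.05, 6 here, ran from 1 to 8 over the arrays left out (3 without casein array 1, 1 without high-fat array 1 and 2 without high-fat array 2), and from 4 to 7 otherwise. Hspa1b was among them each time. Shared replicate numbers gave a correlation of deviations of -0.02, so they are not shown to pair the arrays; with the replicate block the count of members was 4. The heat shock median was -0.34 with the second brightest probe set and -0.22 to -0.35 with 1 array left out; the unfolded protein response median was -0.03 to -0.22. The median of all genes was 0.0073 after quantile normalisation, and -0.018 to 0.0019 with 1 array left out. No member of the HSP70 machine changed sign in any alternative run, but the dimmest probe set of Hspa4, which no run used alone, differed by 0.16. Differences near 0 in the main run changed sign. Pdia6 was 0.0040 after quantile normalisation and 0.0043 after median centring. Hspb8 was -0.011 and Pdia4 -0.0032 as the mean of probe sets. With the second brightest probe set Hspb8 was -0.028, Atf4 0.052, Hsp90b1 -0.052 and Sel1l 0.066. Edem1 was 0.22 as the mean of probe sets and 0.50 with the second brightest. In that last run it was among the members at an unadjusted limma p under 0.05, higher in the high-fat arrays. The members counted were therefore not all lower in every run. With 1 array left out the ranges that crossed 0 were Asns -1.11 to 0.061, Ddit3 -0.090 to 0.040, Edem1 -0.13 to 0.0033, Hspa9 -0.19 to 0.082, Hspb8 -0.46 to 0.48, Pdia6 -0.21 to 0.20, Ppp1r15a -0.067 to 0.083, Ero1b -0.036 to 0.22, Hsp90b1 -0.00081 to 0.11, Hspb1 -0.32 to 0.046, Pdia4 -0.13 to 0.21, Chac1 -0.10 to 0.73 and Trib3 -0.10 to 0.53. The cause was not tested. The number of arrays, and for Chac1 and Trib3 their low signal, limit what can be seen.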
